A study of Mus musculus with 9 samples.

Results

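The endothelial genes described here are Arhgef15 and 9 genes of brain endothelium and its barrier, Cldn5, Pecam1, Flt1, Kdr, Tek, Cdh5, Slco1a4, Abcb1a and Ly6c1, 10 of the 55536 genes in the deposited tables. They were chosen by symbol, with earlier results of these libraries known: Arhgef15 for its level in hAPP-J20 hippocampus at 24 weeks against controls, the others as known endothelial genes. RNA of mouse hippocampus was sequenced from hAPP-J20 mice (Tg) at 24 weeks (3 libraries), Tg at 15 weeks (3), and from wild-type controls (nTg) at 24 weeks (2) and 15 weeks (1). The hAPP-J20 line carries a transgene for mutant human amyloid precursor protein that is driven in neurons by the PDGF-B promoter, and the series set an age before plaques (15 weeks) against one after plaques (24 weeks). A library name such as Tg_24w_3 gives genotype, age and replicate; nTg replicates 1 and 3 are 24 weeks old and nTg replicate 2 is 15 weeks old. The replicates are labelled as biological, but whether they are separate animals is not stated, so the spread behind each p-value may be partly technical. The labels' batch field holds the age (15w or 24w), and effects of age and of batch cannot be told apart.

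The endothelial cells of brain capillaries form the blood-brain barrier. Tight junctions close the gaps between neighbouring cells, adherens junctions hold them together, and transporters in their membranes let some molecules in and pump others back into the blood. Growth and stability of these vessels depend on signals of vascular endothelial growth factor (VEGF) through its receptors and of angiopoietins through the receptor Tie2. ARHGEF15 is a guanine nucleotide exchange factor for the small GTPase RhoA. It is made in vascular cells, where it takes part in the response to VEGF, and in neurons, where it is known as Ephexin5, acts downstream of the receptor EphB2 and restrains the formation of excitatory synapses.

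Promoters from RefSeq (GRCm38.p6, 250 bases before to 50 after the start) were matched for 7 of the 10 genes: Tek, Abcb1a, Kdr, Flt1, Slco1a4, Ly6c1 and Cldn5. Those of 4 genes are shown, because Kdr and Tek had the levels that followed each other most closely over the libraries, Flt1 encodes the other VEGF receptor, and Cldn5 encodes the main tight junction protein. Capitals mark GGAAG or its reverse complement CTTCC, letters found in binding sites of ETS factors, which include the endothelial regulators ERG and FLI1.
Kdr promoter, chr5:75978406-75978705, minus strand: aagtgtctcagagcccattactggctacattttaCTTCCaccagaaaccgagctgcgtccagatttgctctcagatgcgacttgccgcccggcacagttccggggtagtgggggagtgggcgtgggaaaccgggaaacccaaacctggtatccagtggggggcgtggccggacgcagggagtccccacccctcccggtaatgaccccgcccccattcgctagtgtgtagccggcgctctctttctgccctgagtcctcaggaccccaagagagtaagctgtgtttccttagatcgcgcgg
Tek promoter, chr4:94739039-94739338, plus strand: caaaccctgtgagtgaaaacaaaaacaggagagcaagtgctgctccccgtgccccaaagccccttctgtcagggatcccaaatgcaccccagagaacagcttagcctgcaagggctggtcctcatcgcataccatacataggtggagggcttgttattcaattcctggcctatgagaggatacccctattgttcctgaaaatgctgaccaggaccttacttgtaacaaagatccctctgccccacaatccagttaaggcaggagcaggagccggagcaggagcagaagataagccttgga
Flt1 promoter, chr5:147725962-147726261, minus strand: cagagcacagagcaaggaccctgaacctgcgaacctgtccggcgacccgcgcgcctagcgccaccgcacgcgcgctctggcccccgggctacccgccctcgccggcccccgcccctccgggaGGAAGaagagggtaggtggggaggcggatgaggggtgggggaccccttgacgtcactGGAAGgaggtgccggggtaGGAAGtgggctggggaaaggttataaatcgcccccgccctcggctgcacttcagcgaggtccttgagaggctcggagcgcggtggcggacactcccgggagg
Cldn5 promoter, chr16:18776597-18776896, plus strand: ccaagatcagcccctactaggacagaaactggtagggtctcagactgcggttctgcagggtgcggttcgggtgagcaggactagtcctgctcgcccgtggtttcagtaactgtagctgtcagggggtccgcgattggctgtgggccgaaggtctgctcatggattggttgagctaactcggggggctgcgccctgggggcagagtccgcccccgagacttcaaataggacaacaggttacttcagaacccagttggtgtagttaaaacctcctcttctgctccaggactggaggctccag
GGAAG on either strand stood in 5 of the 7 promoters, with 3 matches in Flt1, 2 each in Abcb1a and Slco1a4, 1 each in Kdr and Ly6c1, and none in Tek or Cldn5. It stood in 71.4% of all 32851 promoters of that length, so its share in these genes is near that of any promoter. The longer forms CCGGAAG (8.86% of all promoters) and ACAGGAAG (3.58%) stood in 0 of the 7, and ACAAT, the core letters of SOX sites (31% of all promoters), in Tek and Slco1a4. The shorter letters GGAAG lie within both longer forms. A match is a description of the letters and not a binding site.

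Total counts lay between 12733452 (Tg_24w_3) and 21529266 (Tg_15w_3). Tg_24w_3 stood apart from the others: on the first principal component of log2 CPM (counts scaled to library size with TMM factors), which held 37.1% of the variance, it was at 84.6 and the other 8 libraries between -30.9 and 4.87. In nTg_24w_1 the Y-linked gene Ddx3y (39 CPM) and the X-inactivation RNA Xist (7.34 CPM) were both counted, whereas each other library held either no Ddx3y or Xist at 0.149 CPM at most. Most values that moved by a large factor without Tg_24w_3 are given both ways. Libraries with high Xist, among them Tg_24w_3, Tg_15w_1, Tg_15w_3 and nTg_24w_3, lay in each genotype.

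Each of the 10 genes was counted in each of the 9 libraries, with 58 (Tek, Tg_24w_3) to 619 (Ly6c1, Tg_15w_1) reads per gene and library, and all passed the filter on low counts. Per length, on the authors' TPM scale, Ly6c1 was the most abundant (33.8 ± 10.2 TPM, SD over 9 libraries) and Cldn5 next (26 ± 13.2 TPM). These neighbours did not differ beyond their spread: Ly6c1 was the higher of the pair in 6 of 9 libraries. Slco1a4 followed at 6.81 ± 1.39 TPM, lower than Cldn5 and higher than Pecam1 in each of the 9 libraries. Pecam1 (3.34 ± 0.408 TPM), Abcb1a (3.05 ± 0.594), Cdh5 (2.81 ± 0.415), Arhgef15 (2.76 ± 0.872), Flt1 (2.63 ± 0.496) and Tek (2.18 ± 0.551) formed a run in which each mean lay within 1 SD of its neighbour in the run. Kdr was the least abundant at 1.39 ± 0.236 TPM, below Tek in each of the 9 libraries. These are levels of a whole tissue, in which fewer endothelial cells and less RNA per cell cannot be told apart.

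The 10 genes were set beside a second endothelial list. All 25 genes of that list, which also holds Cldn5, among them Emcn, Egfl7, Tie1, Erg and Sox17, were counted in each library, and none was at 0. The same held for the marker lists of other cells, except for the smooth muscle gene Tagln, so being counted does not test the label of brain endothelium. The summed level of the 25 genes was 1908 to 2104 CPM in Tg at 24 weeks, 1697 to 1741 CPM in Tg at 15 weeks and 1733 to 1823 CPM in nTg. Most of that sum came from Bsg (828 CPM on average) and Spock2 (711 CPM), which other brain cells also express. The summed level of the 10 endothelial genes themselves was 117 to 187 CPM in Tg at 24 weeks, 90.7 to 131 CPM in Tg at 15 weeks and 97.6 to 136 CPM in nTg, so the groups overlapped.

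**Figure D1:**
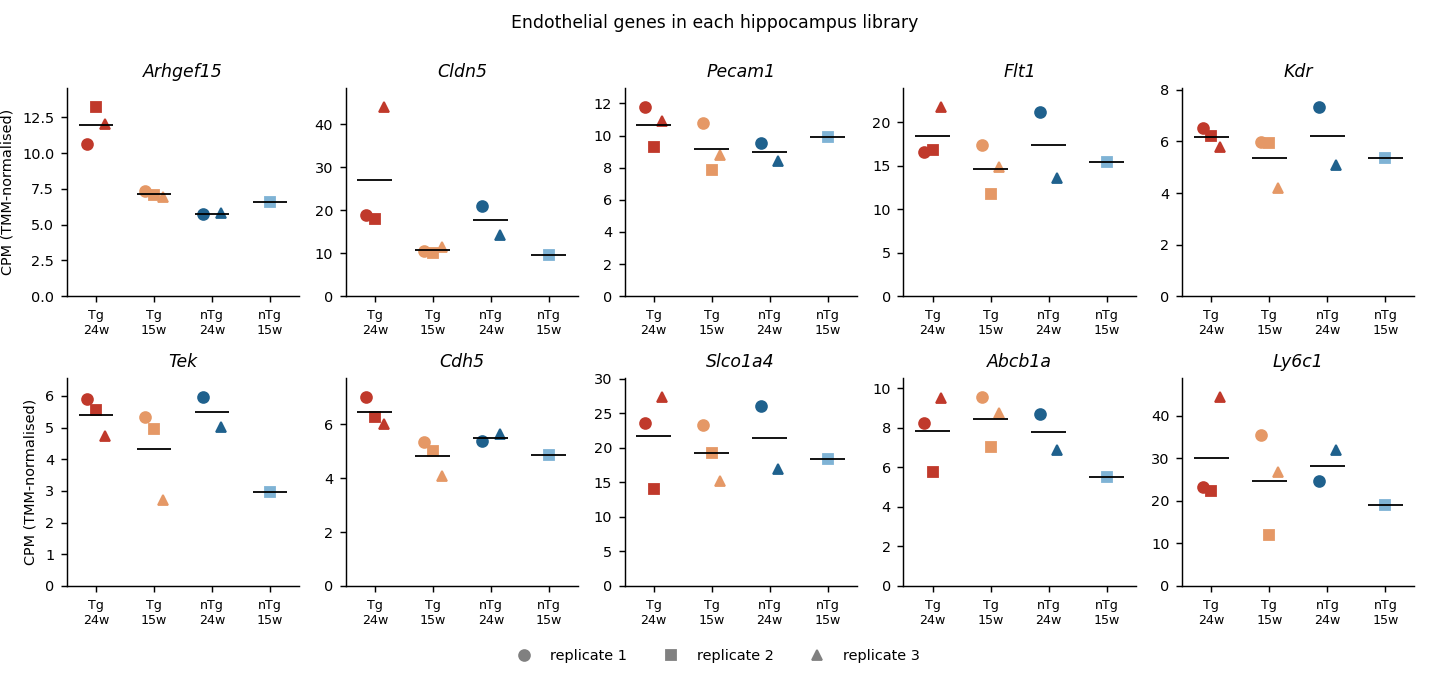
TMM-normalised CPM of each endothelial gene (y axis, linear from 0) by genotype and age (x axis). Each point is 1 library, its shape the replicate number and the bar the mean; nTg at 15 weeks is 1 library. In Arhgef15 all 3 Tg 24-week libraries (10.6 to 13.2 CPM) lay clear of all others (5.73 to 7.33 CPM), in Cdh5 by a small margin (6.02 against 5.64 CPM at most), whereas Cldn5 was high in Tg_24w_3 (44 CPM) and overlapped nTg.

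Arhgef15, the exchange factor, had 10.6, 13.2 and 12 CPM in Tg at 24 weeks, then 7.33, 7.09 and 6.95 CPM in Tg at 15 weeks, against 5.73 and 5.82 CPM in nTg at 24 weeks and 6.56 CPM in nTg at 15 weeks. All 3 Tg 24-week libraries were above all others, and all 3 Tg 15-week libraries were above all 3 nTg libraries. The means were 12 ± 1.31 CPM in Tg at 24 weeks, 7.12 ± 0.193 CPM in Tg at 15 weeks and 6.04 ± 0.453 CPM in nTg (SD, n = 3 each), a ratio of 1.98 at 24 weeks and 1.18 at 15 weeks. On the TPM scale the values were 3.51, 4.56 and 3.34 in Tg at 24 weeks, 2.31, 2.29 and 2.61 in Tg at 15 weeks, and 2.04, 2.22 and 1.94 in nTg replicates 1, 2 and 3, with the same order of groups and no overlap.

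The fitted log2 difference of Arhgef15 between Tg at 24 weeks and nTg was 0.98 ± 0.16 (SE), and edgeR placed it past the threshold of 0.05 for the adjusted p. This value chose the gene, so it is given as a description. Arhgef15 was the 1 called gene among the 10, where 0.132% of the 17457 genes tested were called in either direction with 0.0516% called as higher and 0.0802% as lower. The size of the difference held: it lay between 0.87 and 1.05 when any 1 library was left out, and was 0.97 without Tg_24w_3 and 0.93 without both Tg_24w_3 and nTg_24w_1. The call depended on the libraries. It was kept without Tg_24w_3, and lost when any other single library was left out (Tg_24w_1, Tg_24w_2, Tg_15w_1, Tg_15w_2, Tg_15w_3, nTg_24w_1, nTg_15w_2 or nTg_24w_3). In the 24-week libraries alone, which share 1 value of that field, with 3 Tg and 2 nTg, the log2 difference was 1.02 ± 0.23 and 0 of 17075 genes were called, with 670 at an unadjusted p under 0.05. On log2(TPM + 1), a scale that understates changes of low genes, the limma difference was 0.64 ± 0.15 and did not pass.

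In Tg at 15 weeks the log2 difference of Arhgef15 from nTg was 0.24 ± 0.16 (edgeR adjusted p = 1). No gene of the 17457 was called in that comparison (0%; 575 at an unadjusted p under 0.05, and 2 called by DESeq2). Groups without overlap and higher in Tg at 15 weeks occurred in 4.85% of all genes (lower in 5.69%), and among the 10 in Arhgef15 alone. All 6 Tg libraries lay above all 3 nTg libraries in 1.12% of genes and below them in 1.2%, and Arhgef15 was the 1 such gene of the 10. The nTg and Tg 24-week libraries chose the gene, so these counts, the interaction and the fit over both ages below are descriptions. Against the 1 nTg library of the same age the difference was 0.11 ± 0.25, in a fit that assumes that library to vary like the rest. Between Tg at 24 weeks and Tg at 15 weeks, which shares the Tg 24-week libraries with the comparison that chose the gene, the difference was 0.75 ± 0.16 (edgeR adjusted p = 0.176, not past the threshold; adjusted p = 0.0175 with DESeq2, range over the alternatives 0.0175 to 0.613). In that comparison edgeR called 0.0344% of all genes (0.0286% higher, 0.00573% lower) and 0 of the 10. Arhgef15, Cldn5 and Cdh5 were free of overlap and higher in Tg at 24 weeks than in Tg at 15 weeks by CPM (10.6% of all genes were), none was lower (10.2%), and by TPM only Arhgef15 and Cldn5 were. In nTg the 24-week libraries stood at -0.19 ± 0.26 relative to the 15-week library. The interaction of genotype and age for Arhgef15, the genotype difference at 24 weeks minus that at 15 weeks, was 0.93 ± 0.31 and did not pass (edgeR adjusted p = 1; 0% of 19574 genes called, 408 at an unadjusted p under 0.05, and 1 called by DESeq2). With both ages in 1 fit, Tg differed from nTg by 0.67 ± 0.19 in log2 (edgeR adjusted p = 0.773; 0% of genes called, 941 at an unadjusted p under 0.05, 35 called by DESeq2). Arhgef15 kept its positive sign under every alternative run in each of the 5 comparisons.

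**Figure D2:**
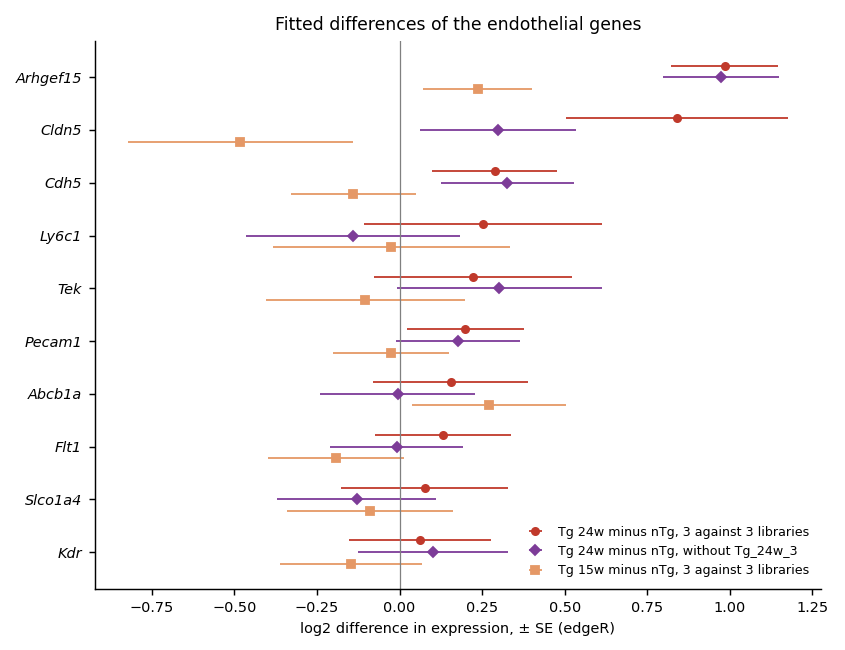
Log2 difference in expression fitted by edgeR (x axis, ± SE) for each endothelial gene (rows). Circles are Tg at 24 weeks minus nTg, diamonds the same without Tg_24w_3 and squares Tg at 15 weeks minus nTg. Arhgef15 stayed near 1 without Tg_24w_3 (0.98 and 0.97), whereas Cldn5 stood at 0.84 with and 0.30 without that library.

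The junction genes differed among themselves. Cldn5, claudin-5, the main sealing protein of the tight junctions of brain endothelium, had 18.9, 18 and 44 CPM in Tg at 24 weeks, then 10.5, 10.1 and 11.5 CPM in Tg at 15 weeks, against 21.1 and 14.3 CPM in nTg at 24 weeks and 9.64 CPM in nTg at 15 weeks. Tg_24w_3 was far above the rest, and Tg and nTg overlapped at 24 weeks. The log2 difference between Tg at 24 weeks and nTg was 0.84 ± 0.34 with Tg_24w_3 and 0.30 without it. Cldn5 was higher at 24 than at 15 weeks in both genotypes, by 1.32 ± 0.34 on the log2 scale in Tg and by 0.87 ± 0.47 in nTg, where the 15-week side is 1 library. The difference in Tg did not pass edgeR's threshold (adjusted p = 0.215), while DESeq2 called it, and it was 0.77 without Tg_24w_3.

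Cdh5, VE-cadherin of the adherens junctions, had 7.03, 6.28 and 6.02 CPM in Tg at 24 weeks, then 5.33, 5.02 and 4.06 CPM in Tg at 15 weeks, against 5.36 and 5.64 CPM in nTg at 24 weeks and 4.87 CPM in nTg at 15 weeks. All 3 Tg 24-week libraries were above all others by CPM, with a log2 difference of 0.29 ± 0.19 from nTg that did not pass. On the TPM scale the groups overlapped, with 3.58, 3.34 and 2.58 TPM in Tg at 24 weeks and 2.94, 2.54 and 2.89 TPM in nTg replicates 1, 2 and 3. Arhgef15 and Cdh5 were thus the 2 of 10 genes without overlap and higher in Tg at 24 weeks by CPM, where 9.72% of all genes were. None of the 10 was lower, where 7.14% of all genes were. Arhgef15 was chosen for this difference, and of the other 9 genes only Cdh5 was so by CPM and none by TPM. Without Tg_24w_3 Arhgef15 and Cdh5 were free of overlap by CPM (15.6% of all genes) and by TPM. The other 8 overlapped nTg. Pecam1, the adhesion molecule CD31, had 11.8, 9.31 and 10.9 CPM in Tg at 24 weeks, against 9.55 and 8.4 CPM in nTg at 24 weeks and 9.89 CPM in nTg at 15 weeks. It was the least variable of the 10 genes, with an SD of 0.189 on the log2 scale over the 9 libraries and a log2 difference of 0.20 ± 0.18.

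The receptors of VEGF and of the angiopoietins did not separate the groups. Flt1 (VEGF receptor 1) had 16.6, 16.7 and 21.7 CPM in Tg at 24 weeks, then 17.4, 11.7 and 14.8 CPM in Tg at 15 weeks, against 21.2, 15.4 and 13.5 CPM in nTg replicates 1, 2 and 3. Kdr (VEGF receptor 2), the main signalling receptor of VEGF in endothelium, had 6.52, 6.22 and 5.78 CPM in Tg at 24 weeks, then 5.96, 5.92 and 4.2 CPM in Tg at 15 weeks, against 7.34, 5.37 and 5.09 CPM in nTg replicates 1, 2 and 3. Tek, the angiopoietin receptor Tie2, had 5.91, 5.54 and 4.72 CPM in Tg at 24 weeks, then 5.33, 4.97 and 2.71 CPM in Tg at 15 weeks, against 5.98, 2.98 and 5.03 CPM in nTg replicates 1, 2 and 3. For all 3 receptors the range in nTg covered or overlapped that of Tg, and Tek was lowest in Tg_15w_3 and nTg_15w_2. Their log2 differences at 24 weeks were 0.13 ± 0.21 for Flt1, 0.06 ± 0.21 for Kdr and 0.22 ± 0.30 for Tek. Within the 24-week libraries they were 0.05, -0.04 and -0.05. As a difference of mean log2 CPM between Tg at 24 weeks and nTg, Flt1 stood at 0.15 with Tg_24w_3 and 0.02 without it.

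The transporters and Ly6c1 overlapped between the groups. Slco1a4, an organic anion transporter of the barrier, had 23.6, 14 and 27.4 CPM in Tg at 24 weeks, against 26.1, 18.4 and 16.9 CPM in nTg replicates 1, 2 and 3. Abcb1a, the P-glycoprotein efflux pump, had 8.24, 5.75 and 9.52 CPM in Tg at 24 weeks, against 8.69, 5.52 and 6.86 CPM in nTg replicates 1, 2 and 3. At 15 weeks the 3 Tg libraries held Slco1a4 at 15.2 to 23.4 CPM and Abcb1a at 7.03 to 9.57 CPM, both within reach of nTg. Log2 differences at 24 weeks were 0.08 ± 0.25 for Slco1a4 and 0.15 ± 0.23 for Abcb1a, and became -0.13 and -0.01 without Tg_24w_3. Ly6c1, a surface antigen of endothelium and of some blood leukocytes, had 23.4, 22.4 and 44.5 CPM in Tg at 24 weeks, then 35.5, 11.8 and 26.8 CPM in Tg at 15 weeks, against 24.6, 18.9 and 31.9 CPM in nTg replicates 1, 2 and 3. Tg_24w_3 was its highest library and Tg_15w_2 its lowest. Its log2 difference at 24 weeks was 0.25 ± 0.36 with Tg_24w_3 and -0.14 without it. In Ly6c1 36.7% of the 50-base stretches of its transcript also occur in Ly6c2 or Ly6a, in Abcb1a 17% occur in Abcb1b or Abcb4, and in Slco1a4 2.73% occur in its near copies, so reads of these 3 genes may have been assigned unevenly. Gm42684 and Gm42686 overlap Abcb1a and the antisense gene Gm29682 overlaps Cdh5, and without a stated strand setting their reads cannot be told apart.

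As a list, the 10 genes had a median log2 difference of 0.21 between Tg at 24 weeks and nTg, positive in 10 of 10, where all genes tested had a median of 0.03 and 53.3% were positive. Without Tg_24w_3 the median was 0.14 with 6 of 10 positive (50.3% of all genes), and in the 24-week libraries alone 0.05 with 6 of 10 positive (49.8% of all genes). The 9 genes other than Arhgef15, which was chosen for this difference, had medians of 0.20 (9 of 9 positive) with all libraries, 0.10 (5 of 9) without Tg_24w_3 and 0.05 (5 of 9) in the 24-week libraries alone. At 15 weeks the median was -0.10, positive in 2 of 10 (Arhgef15 and Abcb1a), where 50% of all genes were positive. The 3 nTg libraries are shared by both comparisons. Arhgef15 was also set against the other 9 genes within each library, as a description, since the gene was chosen on its values in Tg at 24 weeks and nTg. Its log2 CPM minus their mean was -0.16, 0.38 and -0.21 in Tg at 24 weeks and -0.60, -0.25 and -0.30 in Tg at 15 weeks, against -1.07 and -0.75 in nTg at 24 weeks and -0.36 in nTg at 15 weeks. At 24 weeks the 3 Tg libraries were above the 2 nTg libraries, while at 15 weeks the Tg range enclosed the nTg value. The mean of the other 9 genes was 3.58 ± 0.23 log2 CPM in Tg at 24 weeks, 3.24 ± 0.22 in Tg at 15 weeks and 3.35 ± 0.26 in nTg. Between Tg at 24 weeks and nTg the difference of Arhgef15 from the other 9 was higher by 0.73, and by 0.84 without Tg_24w_3, 0.67 without Tg_24w_3 and nTg_24w_1, 0.81 without Cldn5 and Ly6c1, and 0.53 on the log2(TPM + 1) scale.

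**Figure D3:**
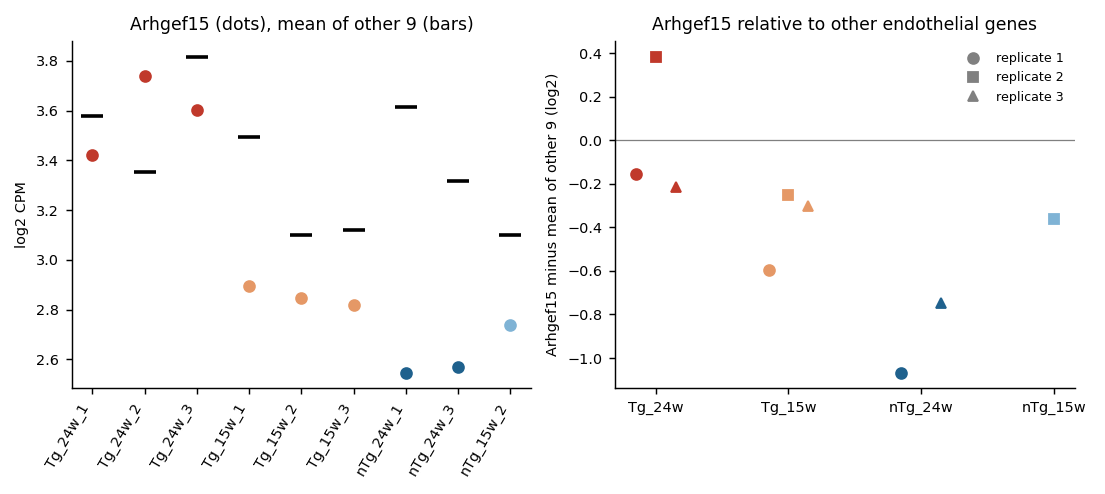
Left, log2 CPM of Arhgef15 (dots) and the mean log2 CPM of the other 9 endothelial genes (bars) in each library. Right, the difference between the 2 by group, 1 point per library; Tg at 24 weeks lay between -0.21 and 0.38 and nTg between -1.07 and -0.36.

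Over the 9 libraries the 10 genes were loosely related. Of their 45 pairs 42 had a positive Pearson r of log2 CPM, with a median of 0.43, and 40 were positive without Tg_24w_3 (median 0.34). These values describe the 9 libraries, share their depth and normalisation, and carry no test. The closest pair was Tek and Kdr (r = 0.824 with and without Tg_24w_3). Arhgef15 was nearest to Cdh5 (r = 0.635 over 9 libraries, 0.613 over the 8 without Tg_24w_3). Its r with Cldn5 was 0.573 with Tg_24w_3 and 0.349 without it, with Pecam1 0.479 and 0.374, with Slco1a4 0.01 and -0.31, and with Abcb1a -0.01 and -0.25. By the rule for likeness the protein-coding genes that followed Arhgef15 most closely over the 9 libraries, among 11227 with a mean of at least 5 CPM or in the list, were Rprm (Reprimo; r = 0.971, Spearman rank correlation 0.967), the complement gene C4b (0.969 and 0.933), Rab33a (0.968 and 0.85), Cib2 (0.953 and 0.917) and the enkephalin precursor Penk (0.943 and 0.7). Without Tg_24w_3 they were Dusp23 (r = 0.983), Fcrls (0.977), Rprm (0.971), Cib2 (0.962) and C4b (0.96), so that Rprm, Cib2 and C4b stood in both sets. None of these is an endothelial marker in the lists used here, and Cdh5, the nearest of the endothelial genes, ranked 1251 of that set over the 9 libraries. Arhgef15 was chosen for a group difference in these same libraries, which favours genes with a like difference in the ranking. The ranking therefore cannot decide whether Arhgef15 follows endothelium.

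Among 34 endothelial genes with a mean of at least 1 CPM (the 10 and the other markers), Arhgef15, chosen for this difference, had the largest difference of mean log2 CPM between Tg at 24 weeks and nTg (0.97), also without Tg_24w_3 (0.96). After it came Egfl7 (0.79), Cldn5 (0.78), Icam2 (0.70) and Vwf, von Willebrand factor (0.63). Without Tg_24w_3 these stood at 0.36 for Egfl7, 0.37 for Cldn5, 0.44 for Icam2 and 0.80 for Vwf. At the other end the thyroid hormone and anion transporter Slco1c1, which astrocytes also express, stood at -0.38 (-0.45 without Tg_24w_3).

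Genes of the related pathways were described from 9 lists. In Tg at 24 weeks against nTg no gene of these lists other than Arhgef15 was called, where 23 of all 17457 genes tested were. Without Tg_24w_3 edgeR also called Vegfd in these lists, and Dcn, a fibroblast gene, among the meningeal markers, both as higher. In that setting 36 of all 17795 genes tested were called, 16 of them as higher. Of 11 tight junction genes 3 had a positive difference (median -0.23), among them the adhesion molecule Esam, which had 9.45, 7.11 and 18 CPM in Tg at 24 weeks, against 6.9, 6.61 and 7.78 CPM in nTg replicates 1, 2 and 3, a log2 difference of 0.68 with Tg_24w_3 and 0.22 without it. Of 18 barrier transporter and transcytosis genes 10 were positive (median 0.06; 6 and -0.10 in the 24-week libraries alone), and the lipoprotein receptor Lrp8 had 43.1, 42.5 and 42.4 CPM in Tg at 24 weeks, against 55.9, 50.8 and 54 CPM in nTg replicates 1, 2 and 3. Of 16 VEGF pathway genes tested 8 were positive (median -0.04).

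The growth factor gene Vegfd had 8.14, 12.6 and 5.05 CPM in Tg at 24 weeks, against 3.33, 3.03 and 4.9 CPM in nTg replicates 1, 2 and 3, a log2 difference of 1.21 ± 0.31. The VEGF co-receptor gene Nrp1 had 36.8, 38.3 and 36 CPM in Tg at 24 weeks, against 54.2, 45.9 and 47.9 CPM in nTg replicates 1, 2 and 3, a log2 difference of -0.41 ± 0.12. In both genes Tg at 24 weeks and nTg did not overlap. The genes named from the pathway lists, here and below, were picked mainly for small p in this comparison, which favours groups without overlap. Of all genes tested, 9.72% were higher without overlap in Tg at 24 weeks and 7.14% lower. Neither Vegfd nor Nrp1 passed the threshold with all libraries, and Vegfd, at 1.47 ± 0.26, passed it without Tg_24w_3. Angpt2, angiopoietin 2, a Tie2 ligand released by endothelium, had 2.17, 2.3 and 4.23 CPM in Tg at 24 weeks, against 1.48, 1.34 and 1.96 CPM in nTg replicates 1, 2 and 3, a log2 difference of 0.85 with Tg_24w_3 and 0.49 without it. All 5 angiopoietin and Tie receptor genes tested were positive (median 0.15), and 3 of 5 in the 24-week libraries alone (median 0.01).

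Of 14 genes of the endothelial Wnt pathway, which maintains the barrier, 7 were positive (median 0.04; 9 and 0.10 without Tg_24w_3). The co-receptor gene Lrp6 had 34.1, 30.6 and 33 CPM in Tg at 24 weeks, against 56.7, 48.7 and 43.6 CPM in nTg replicates 1, 2 and 3, a log2 difference of -0.61 ± 0.14. The receptor gene Fzd4 had 14.7, 8.84 and 5.53 CPM in Tg at 24 weeks, against 18.9, 14.2 and 15.8 CPM in nTg replicates 1, 2 and 3, so that Fzd4 overlapped and Lrp6 did not. The log2 difference of Fzd4 was -0.73 with Tg_24w_3 and -0.47 without it. Of 17 endothelial transcription factors 12 were positive (median 0.09; 10 and 0.01 without Tg_24w_3). Epas1, which encodes the hypoxia-inducible factor HIF-2α, had 97.7, 97.9 and 54.7 CPM in Tg at 24 weeks, against 99.6 to 142 CPM in the 3 nTg libraries, so that the groups did not overlap, with a log2 difference of -0.45 with Tg_24w_3 and -0.23 without it. Klf4 stood at -0.51 with and -0.80 without that library, and Tal1, under 1 CPM on average, at 0.77 ± 0.39 with it, and none of the 3 passed the threshold. Of 6 leukocyte adhesion genes tested 4 were positive (median 0.14; 4 and 0.22 without Tg_24w_3).

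Of 18 Eph receptor and ephexin partner genes, Arhgef15 included, 12 were positive (median 0.26; 12 and 0.07 without Tg_24w_3). Ephb4, the endothelial ephrin receptor of veins, had 6.52, 7.17 and 14.1 CPM in Tg at 24 weeks, against 5.05, 4.27 and 4.72 CPM in nTg replicates 1, 2 and 3, with no overlap and a log2 difference of 0.97 ± 0.28 with Tg_24w_3 and 0.54 ± 0.20 without it. Of 24 genes named Arhgef 10 were positive (median -0.19; 9 and -0.07 without Tg_24w_3), with 1 called as higher (Arhgef15) and 0 as lower, and Arhgef3 had 65.1, 59.2 and 44.9 CPM in Tg at 24 weeks, against 82.2, 77.2 and 71.5 CPM in nTg replicates 1, 2 and 3.

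Markers of other cells also differed between libraries. Blood markers (5 of 5 counted in every library, led by the haemoglobin genes Hbb-bs and Hba-a1) summed to 145, 402 and 786 CPM in Tg at 24 weeks, against 168 to 312 CPM in nTg. They were highest in Tg_24w_3, where Cldn5 and Ly6c1 were also highest, which rests on 1 library. Tg_24w_1 and Tg_24w_2, with blood markers at 145 and 402 CPM, held Cldn5 at 18.9 and 18 CPM. Smooth muscle markers (7 of 8 counted in every library, Tagln at 0 in some) summed to 58.1 to 84.6 CPM in Tg at 24 weeks, 40.3 to 49.5 CPM in Tg at 15 weeks and 41.3 to 57.8 CPM in nTg, so the Tg 24-week libraries were above all others. Meningeal fibroblast markers (10 of 10) summed to 244 to 307 CPM in Tg at 24 weeks, 183 to 259 CPM in Tg at 15 weeks and 172 to 218 CPM in nTg. Pericyte markers (12 of 12) overlapped, with 192 to 243 CPM in Tg at 24 weeks and 176 to 227 CPM in nTg. Neuron markers (9 of 9, led by Camk2a and Slc17a7) are relevant since neurons also express Arhgef15. They summed to 10310 to 10980 CPM in Tg at 24 weeks and 9963 to 10840 CPM in nTg. Single neuron markers differed more than the sum. Of the 9, 4 had a positive log2 difference at 24 weeks (median -0.06; 6 and 0.03 without Tg_24w_3). Among the positive ones were Tubb3 at 0.87 ± 0.24 and Rbfox3 at 0.63 ± 0.26, and none was called. Choroid plexus markers (10 of 10, led by Ttr) summed to 6724 CPM in Tg_24w_1 and 5486 CPM in Tg_24w_3, and to 5138 to 6852 CPM in nTg. They were lower than in any nTg library in Tg_24w_2 and in all Tg 15-week libraries (1844 to 3938 CPM). Oligodendrocyte markers (8 of 8) summed to 3778 to 4819 CPM in Tg at 24 weeks and 3951 to 4611 CPM in Tg at 15 weeks. In nTg they summed to 5075 to 6088 CPM, above both Tg groups. Astrocyte and microglia markers overlapped between the groups. The part of these cells in the values of Arhgef15 and Cldn5 was not tested.

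**Figure D4:**
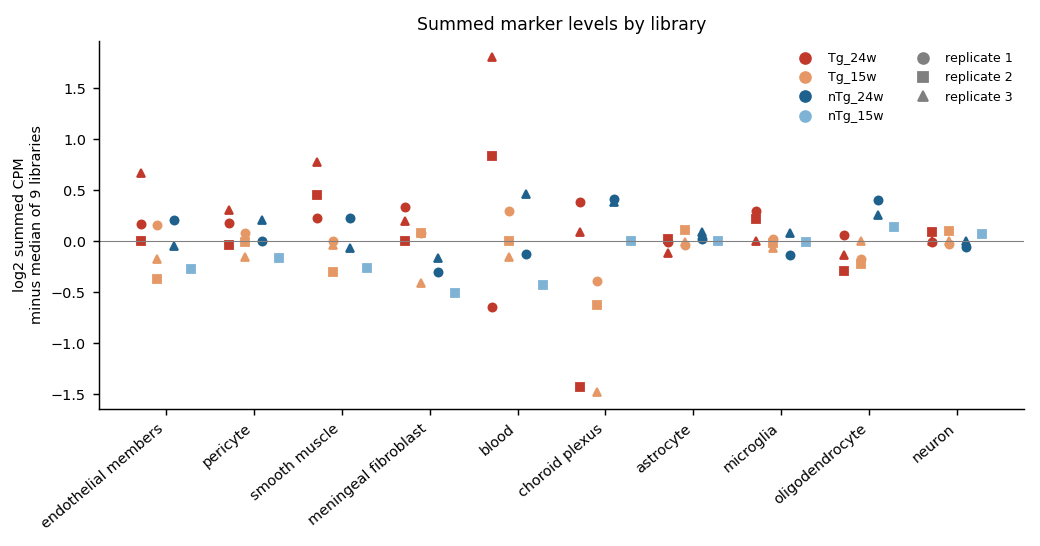
Summed CPM of the markers of each cell type in each library, as log2 relative to the median of the 9 libraries (y axis). Colours are the groups and shapes the replicates; blood markers ranged most within Tg at 24 weeks (145 to 786 CPM), while neuron and astrocyte markers stayed close to 0 in all libraries.

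Tg_24w_3 differed from the other libraries by transcript length. Relative to the median of the other 8, protein-coding genes with a longest transcript under 2 kb stood at a median of 0.32 in log2 CPM in Tg_24w_3, those of 4 to 6 kb at -0.18 and those over 6 kb at -0.28. Genes of at least 55% GC stood at 0.26 and those under 45% at -0.06. The endothelial genes with the shortest transcripts, Ly6c1 (844 bases) and Cldn5 (1416 bases, 60.5% GC), stood highest in Tg_24w_3, at 0.89 for Ly6c1 and 1.77 for Cldn5. Kdr (5924 bases) and Tek (4654 bases) stood at -0.04 and -0.13. Flt1, the longest at 6895 bases, stood higher at 0.44, and Abcb1a (4997 bases) at 0.32. Slco1a4 (3823 bases), Pecam1 (3441 bases) and Cdh5 (3995 bases) stood at 0.54, 0.21 and 0.17. The part of length or GC in the values of these endothelial genes was not tested. Arhgef15 (4372 bases, 56.1% GC) stood at 0.77 in Tg_24w_3, between its values of 0.59 in Tg_24w_1 and 0.90 in Tg_24w_2, and its log2 difference from nTg was as large without Tg_24w_3.

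**Figure D5:**
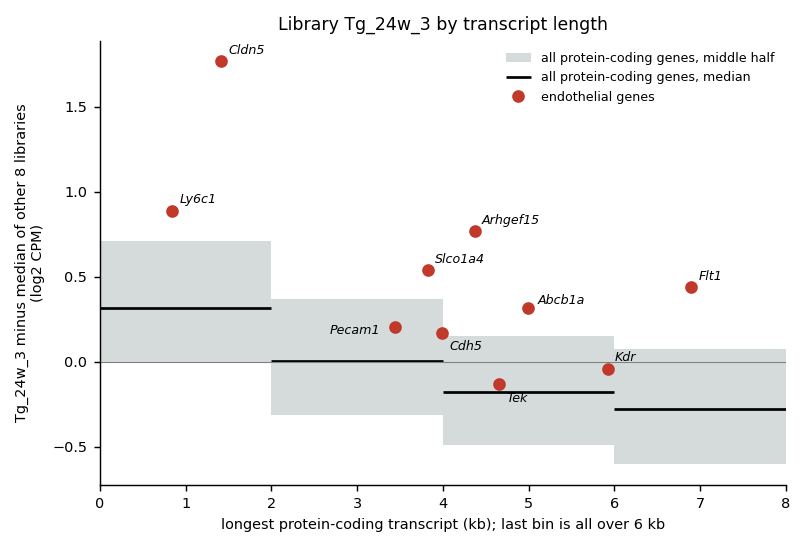
Log2 CPM in Tg_24w_3 minus the median of the other 8 libraries (y axis) against the length of the longest protein-coding transcript (x axis, kb). Points are the 10 endothelial genes; bars and shading are the median and interquartile range of all protein-coding genes tested per length bin, from 0.32 under 2 kb to -0.28 over 6 kb.

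In GRCm38, as the deposited table gives them, Arhgef15 (ENSMUSG00000052921) lies on chromosome 11 from 68943155 to 68957480 on the minus strand and Cldn5 on chromosome 16 from 18776847 to 18778262 on the plus strand. Cdh5 lies on chromosome 8 from 104101625 to 104144511 on the plus strand. No other gene of the table overlaps Arhgef15 or Cldn5.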

How the data were processed

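RNA of 9 hippocampus libraries was measured by sequencing. Per the file headers, the authors' tables hold raw counts (whole reads for each gene) and TPM. Per the submitters' processing notes, the tools were CASAVA, Trimmomatic 0.38, HISAT2 2.1.0, featureCounts 2.0.0 and DESeq2 1.26.0 on GRCm38; annotation release and strand: not given in the sources used here. Counts were tested with edgeR 4.0.16 (quasi-likelihood, TMM, filterByExpr, two-sided, Benjamini-Hochberg over all genes, threshold 0.05) in R 4.3.3. Fits were genotype with age as a term, 3 groups with nTg pooled, and 4 groups for the interaction. SE is the absolute log2 difference over the square root of edgeR's F. CPM are TMM-normalised, and log2 CPM used a prior count of 2. Alternatives were DESeq2 1.42.0, RLE factors, no filter, a replicate block, limma 3.58.1 on log2(TPM + 1), single libraries left out, and 1 batch alone. The code was tested on simulated counts. Members and lists were chosen with earlier results of these data known. Genes named beyond the 10 were, per pathway list, those called and the 2 of smallest p at 24 weeks with a mean of at least 1 CPM; for likeness, the 5 of highest Pearson r at a mean of at least 5 CPM. Other genes and markers were named after their values were seen. The table of TPM was used for levels per length. Transcript length, GC and shared stretches came from the reference's GRCm38 transcripts. Figf was matched as Vegfd. FPKM sheets were not used. At total counts of 12733452 to 21529266, 58 to 619 reads stood behind each endothelial value.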

Additional observations from a re-analysis of the deposited data

Results flagged for a closer look

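Among the 6 Tg libraries, the highest Cldn5 value, 44 CPM in Tg_24w_3, lay apart from the next (18.9 CPM), with a gap of 0.742 of the whole range, above Dixon's 95% value of 0.625. The lowest Kdr value, 4.2 CPM in Tg_15w_3, lay apart by 0.68 of the range, and the lowest Tek value, 2.71 CPM in the same library, by 0.627. Chance flags about 1 in 20 such groups, and 10 genes were examined. Relative to the median of the other libraries on the log2 scale, Tg_15w_3 held Tek at -0.91 and Kdr at -0.49. Slco1a4, Cldn5 and Cdh5 stood at -0.48, -0.47 and -0.43 there, and Flt1, Pecam1 and Arhgef15 at -0.17, -0.14 and -0.05. Abcb1a and Ly6c1 stood at 0.20 and 0.16. None of the interaction tests of genotype and age passed for the 10 genes.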

How the results depend on the processing

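Between Tg at 24 weeks and nTg 23 genes were called, of which Arhgef15 was the 1 endothelial gene. The number was 218 with DESeq2 (1 endothelial gene, Arhgef15) and 559 with no low-count filter (2, Arhgef15 and Cldn5). In each comparison the run with no filter tested 34937 genes. The number was 12 with limma on log2(TPM + 1) (0), 107 without Tg_24w_3 and nTg_24w_1 (1), 0 in the 24-week libraries alone (0), and 4 to 36 with single libraries left out (0 to 1). With the replicate block it was 15 (0 endothelial genes; Arhgef15 at adjusted p = 0.087 in edgeR). The labels do not say whether replicate numbers pair the samples. Deviations of same-numbered libraries had correlations of -0.237 to 0.29 (median 0.024). Those of differently numbered libraries were -0.301 to 0.284 (median -0.025). So few libraries per group cannot decide whether the samples are paired. Over both ages 0 genes were called, against 35 with DESeq2, 135 with no filter, 1 with the replicate block, 3 without Tg_24w_3 and nTg_24w_1 and 0 to 5 with single libraries left out. At 15 weeks 0 were called, against 2 with DESeq2 and 65 with no filter. Between Tg at 24 and 15 weeks 6 were called, against 284 with DESeq2 (2 endothelial genes, Arhgef15 and Cldn5), 701 with no filter (1, Cldn5), 2 with limma on log2(TPM + 1), 71 without Tg_24w_3 and nTg_24w_1, and 1 to 14 with single libraries left out. For the interaction 0 were called, against 1 with DESeq2, 17 with no filter and 0 to 1 with single libraries left out; without nTg_15w_2 it could not be fitted. On TPM 1 endothelial gene, Arhgef15, was free of overlap at 24 weeks, against 2 on CPM. The log2 difference of Arhgef15 kept its sign throughout. Of all member values under alternatives, the sign changed in 17 of 160 at 24 weeks, 20 of 160 at 15 weeks, 19 of 150 over both ages, 6 of 150 between ages and 15 of 120 for the interaction. The overlap counts and the values of Arhgef15 relative to the other 9 genes, with their alternatives, and the list medians without Tg_24w_3 and in the 24-week libraries alone, were added after the data were seen. The causes were not tested. Depth of 58 to 619 reads per gene and library and 1 nTg library at 15 weeks limit what could be detected.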
